A study of Homo sapiens with 2 samples.

Results

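The very late intervals are the stretches of nascent strand DNA that the authors placed in the latest of 6 replication timing classes. All intervals of the deposited very late list on chromosomes 1 to 22 and X were taken, each name once. They numbered 3487 of 161770 intervals in all classes, or 2.16% (exact 95% binomial interval 2.09% to 2.23%). The remaining classes held 23090 very early, 41882 early, 48237 mid early, 36062 mid late and 9012 late intervals.

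The samples were 2 nascent strand libraries of wild type U2OS, an osteosarcoma cell line, and they form a single group. The cells had been arrested before S phase by a double thymidine block and were collected at the 2 hour point. Nascent DNA was selected by size and by lambda exonuclease, an enzyme that digests DNA lacking the RNA primer of a new strand. U2OS is 1 tumour line with an abnormal karyotype, copy number was not measured here, the labels do not say whether separate cultures were used, and no unsynchronised, undigested or thymidine-free sample was analysed.

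As background, mammalian DNA replicates in large domains that follow a reproducible order through S phase. Early domains are mostly gene-rich and open, while late domains are mostly gene-poor, compact and often placed at the nuclear lamina. Origins are licensed in both kinds of domain, and those in late domains usually start after those in early ones. The question posed here is where the very late intervals of cells in early S phase lie and how they differ from intervals of earlier timing.

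Both libraries enter the lists as 1 intersected set, so no test over samples can be made and no p-value is given. Widths are those of the listed intervals, not of the bases in peaks of both libraries, which were 52.6% of very late bases. Each difference is therefore a description, with its spread over chromosomes, which are not biological replicates. Binomial intervals cover counting error only and take intervals as independent, although neighbours share a domain. Read depth behind the intervals is unknown. Fold enrichment and −log10 q are the authors' values for the replicate 1 peak with the largest overlap, and 3486 very late intervals had such a peak. Coordinates are those of hg19, counted from 1. No genome sequence or gene annotation of that build was used, so neither sequences nor genes are given.

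Very late intervals were spread unevenly over the chromosomes. Chromosome 10 held 394 of them, 4.93% of its 7996 intervals (exact 95% interval 4.46% to 5.42%). Chromosome 12 followed with 279 (3.91%) and chromosome 4 with 162 (3.84%). At the other end, chromosome 19 held 6 among 8675 intervals (0.0692%, exact 95% interval 0.0254% to 0.150%) and chromosome 22 held 9 among 6579 (0.137%). Chromosome 14 was the next lowest, with 41 (0.830%). The binomial intervals of the highest and lowest chromosomes do not overlap. Over the 23 chromosomes the share had a median of 2.05% and an SD of 1.23 percentage points. The 5 chromosomes with most members, 10, 2, 7, 12 and 6, together held 1526, or 43.8% of the class. They were picked by count, which also depends on how many intervals of any class a chromosome holds. Of the 161770 intervals in all classes they held 7996, 12965, 8547, 7130 and 5796, in the same order.

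The shortage on chromosomes 19 and 22 was also seen relative to the late class. Chromosome 22 had 9 very late and 333 late intervals, which is 2.70 very late per 100 late ones. Chromosome 19 had 6 and 160, or 3.75 per 100. On chromosome 12 the 2 classes were nearly equal, with 279 very late and 305 late intervals (91.5 per 100), and chromosome 7 had 74.7 per 100. On chromosome 22 all 9 very late intervals stood in 2 runs near the chromosome's end, at chr22:48687213-48703521 and chr22:48982729-48988333. On chromosome 19, 5 of the 6 formed 1 run at chr19:22610303-22807050 and the last stood alone at chr19:37818953-37819112.

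**Figure D1:**
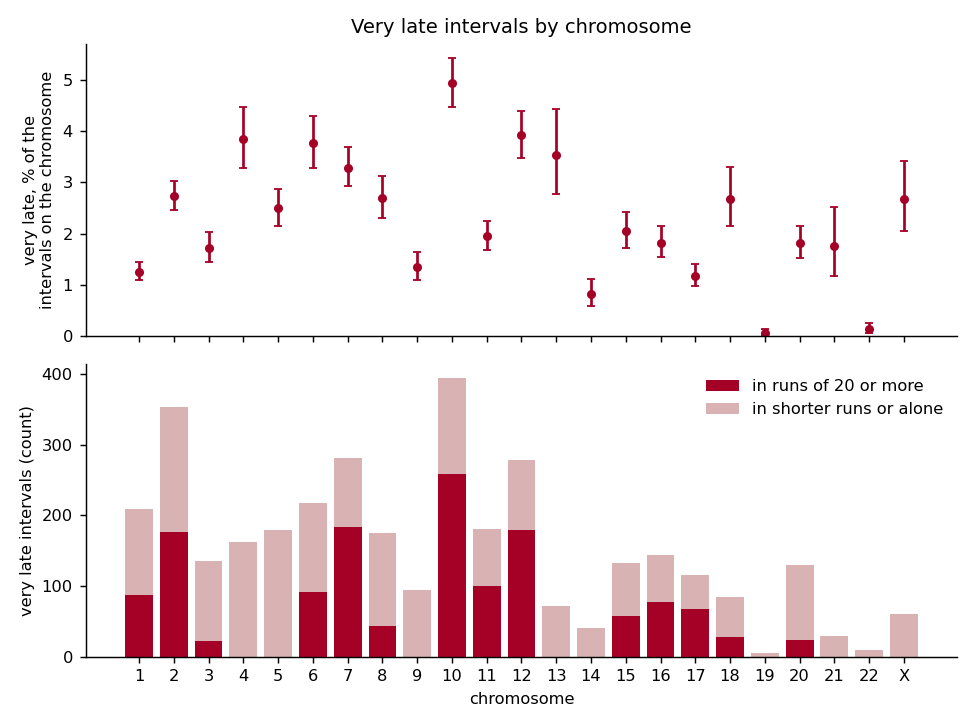
Upper panel: very late intervals as a percentage of all intervals on each chromosome, with exact 95% binomial intervals. Lower panel: number of very late intervals on each chromosome, divided into those in runs of 20 or more neighbouring very late intervals and the rest. Chromosome 10 is highest in both panels, at 4.93% and 394, and chromosomes 19 and 22 are lowest.

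Very late intervals were short, of modest enrichment and often far apart. Their width had a median of 412 bp, with quartiles of 237 and 745.5 bp and a range of 101 to 17611 bp. Under 300 bp lay 1274 of them (36.5%, exact 95% interval 34.9% to 38.2%), against 32.8% of late and 27.1% of very early intervals. At least 2 kb wide were 119 (3.41%), against 4.70% of late and 7.26% of very early intervals. Their fold enrichment had a median of 4.35 (quartiles 3.63 and 5.55) and a maximum of 82.0.

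The difference from the adjacent late class was small against the spread over chromosomes, and that from the other 5 classes together was larger. On the 21 chromosomes with at least 20 intervals in each class, the median width was 406 ± 78.4 bp for very late and 440 ± 40.9 bp for late intervals (mean ± SD over chromosomes). The mean ratio was 0.909, and the very late class was narrower on 16 of 21 chromosomes. With 5 Mb left out at either end of every chromosome this difference was almost gone, with 401 ± 94.9 bp for very late and 399 ± 49.9 bp for late intervals, a mean ratio of 0.985 and very late narrower on 10 of 21. All other intervals had a median width of 538 ± 57.8 bp, and very late ones were narrower on 19 of 21 chromosomes, with a ratio of 0.744. Without the chromosome ends that ratio was 0.797, with very late narrower on 16 of 21. The median fold was 4.33 ± 0.17 in the very late class, against 4.44 ± 0.18 in the late class, and was lower on 13 of 21 chromosomes. Against all other intervals, at 4.68 ± 0.13, it was lower on 20 of 21. A fold of at least 10 was reached by 143 very late intervals (4.10%, exact 95% interval 3.47% to 4.81%), against 4.96% of late intervals (4.52% to 5.43%) and 7.24% of all others.

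The narrowness of very late intervals was greatest among the strongest peaks. Where the −log10 q of the peak was under 2, the median width was 284 bp for 289 very late intervals and 291.5 bp for 676 late ones. Between 3 and 5 it was 379 bp for very late and 403 bp for late intervals. At 10 to 20 it was 609 bp for 345 very late and 774 bp for 1089 late intervals. At 20 or more it was 664 bp for 147 very late and 888 bp for 471 late intervals, a ratio of 0.748. The very late class was the narrowest of the 6 in every one of these bins, and from a −log10 q of 2 upward the difference widened with the strength of the peak.

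Against very early intervals, whose median in the strongest bin was 1127.5 bp, the ratio there was 0.589. Width and −log10 q were also less closely related in the very late class, with a Spearman rho of 0.29 over 3486 intervals, against 0.36 in the late and 0.46 in the mid early class. These coefficients are descriptions over intervals that share libraries and domains. With chromosomes as the unit and a −log10 q of at least 10, 17 chromosomes had 10 or more intervals of each class, and the median width was 690 ± 194 bp for very late and 779 ± 164 bp for late intervals. Very late intervals were narrower on 11 of these 17 chromosomes, and the difference was smaller than either SD. Against all other intervals, at 1007 ± 144 bp, they were narrower on 15 of 17. The difference from late intervals at this strength was largest at chromosome ends. There the median width was 638 bp for 119 very late and 1076 bp for 522 late intervals. Beside long stretches without intervals it was 758 bp for 136 very late and 957 bp for 319 late intervals. Away from ends and from long stretches without intervals it was 537 bp for 237 very late and 602 bp for 719 late intervals.

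**Figure D2:**
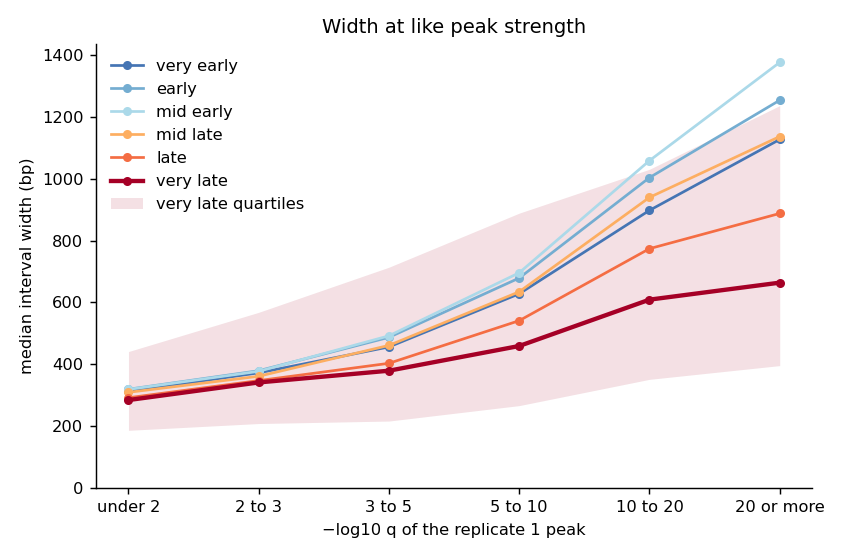
Median interval width in bp (vertical axis) in 6 bins of the −log10 q of the replicate 1 peak (horizontal axis), 1 line per timing class, with the quartiles of the very late class shaded. All classes widen with strength, and the very late line is lowest in each bin, at 284 bp under 2 and 664 bp at 20 or more.

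Very late intervals were more often isolated than those of any other class. The nearest interval of any class lay at a median of 4115 bp from a very late interval, with quartiles of 991 and 31002.5 bp. The median was 2571 bp for late and 1526 bp for very early intervals. At least 100 kb from any neighbour stood 454 very late intervals (13.0%, exact 95% interval 11.9% to 14.2%). The same held for 566 late intervals (6.28%, 5.79% to 6.80%) and for 59 very early ones (0.256%). Taken by chromosome, the share was 17.2 ± 14.5% for very late and 7.73 ± 5.74% for late intervals (mean ± SD, n = 21 chromosomes), and it was higher for the very late class on 18 of 21.

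The chromosomes differed widely in this respect. On chromosome X, 33 of 61 very late intervals (54.1%) stood at least 100 kb from any neighbour, and on chromosome 4 this was true of 63 of 162 (38.9%). On chromosome 10 it was 17 of 394 (4.31%), and on chromosome 17 none of 116. The gap to the following very late interval, where no other class stood between, was on average 2.19-fold longer than the matching gap in the late class, and longer on 15 of 21 chromosomes. Its log2 ratio had an SD over chromosomes of 1.43, against a mean of 1.13, so the size of this difference is poorly fixed.

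**Figure D3:**
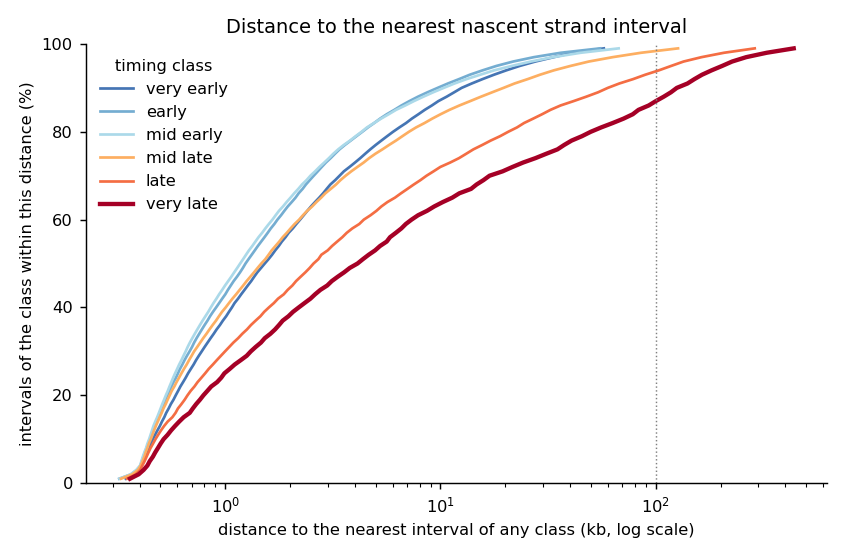
Cumulative percentage of intervals (vertical axis) within a given distance of the nearest interval of any class (horizontal axis, kb, log scale), from the 1st to the 99th percentile of each timing class. The dotted line marks 100 kb, beyond which lie 13.0% of very late and 6.28% of late intervals.

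Width went with isolation inside the class. Very late intervals with a neighbour within 1 kb had a median width of 596 bp, against 659 bp for late ones. At 1 to 10 kb the medians were 446.5 bp for very late and 456 bp for late intervals. At 100 kb or more they were 289.5 bp for very late and 298 bp for late intervals. At each of these distances the difference between the classes was smaller than that between near and isolated very late intervals.

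The very late class held both crowded and nearly empty domains. Read along each chromosome, its members formed 606 runs of neighbouring very late intervals with no interval of another class between them. Of these runs, 225 were a single interval, 345 held 2 to 19, and 36 held 20 or more. The 36 long runs contained 1397 members (40.1%, exact 95% interval 38.4% to 41.7%) and lay on 14 of the 23 chromosomes. This share was within the range of the other classes. Runs of 20 or more held 53.6% of very early, 38.8% of early, 45.1% of mid early, 52.1% of mid late and 28.5% of late intervals. By chromosome the share was 30.1 ± 25.7% for very late and 41.6 ± 9.54% for all other intervals, lower for very late on 14 of 21. Against the late class alone the share was 30.1 ± 25.7% for very late and 21.3 ± 15.4% for late intervals, higher for very late on 12 of 21 chromosomes and lower on 5. Both differences were inside the spread of the very late class. Chromosomes 4 and 5 had no long run but reached 19, just below the threshold.

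The runs bordered mostly on late intervals, the only class next to very late in the timing order. Of their 1212 borders, 1078 (88.9%) met a late interval and 127 (10.5%) a mid late one. A mid early interval stood at 5 borders, and an early and a very early interval at 1 each. Of the 225 single intervals, 168 lay between a late interval on either side. Borders of runs of the other classes were not counted.

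The 2 longest runs flanked the same empty stretch of chromosome 7, which held no interval for 3.76 Mb. The run at chr7:56402716-57487004 had 97 intervals with a median fold of 4.53. The run at chr7:62473929-63865964 had 87 with a median fold of 4.203. They were followed by 67 intervals at chr17:32646691-32971875, 63 at chr12:128839775-129574877 and 57 at chr15:24722033-25490018. These 5 runs held 371 members, or 10.6% of the class.

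Density within long runs differed widely, from 1 interval per 2.60 kb to 1 per 216 kb. The densest was chr1:2736603-2853402, where 45 very late intervals stood in 117 kb, covered 43.4% of it and had a median fold of 5.81, the highest of any long run. At chr8:47041003-47166714, 24 intervals covered 64.0% of 126 kb. In contrast, the 52 intervals at chr2:77316470-83744789 were strung over 6428 kb and covered 0.390% of it, with a median width of 291.5 bp. Across the 36 long runs there was 1 interval per 7.22 kb at the median. In 22 runs it was 1 per less than 10 kb and in 6 it was 1 per 50 kb or more. Among these 6 were a run on chromosome 16 and a run on chromosome 12 that span empty stretches of 11.3 Mb and 3.17 Mb. The run on chromosome 16 is the one with 1 interval per 216 kb, so that value mostly reflects the empty stretch.

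Members of long runs were wider and slightly more enriched than the others. The 225 single intervals had a median width of 278 bp, a median fold of 4.19 and a nearest neighbour at 86.3 kb. Runs of 2 to 19 had medians of 370 bp, 4.26 and 7.87 kb. Long runs had medians of 505 bp, 4.50 and 1.52 kb. Over the 14 chromosomes with a long run, the median width was 579 ± 200 bp inside long runs and 357 ± 55.3 bp outside them, wider inside on 12. The median fold was 4.58 ± 0.28 inside and 4.28 ± 0.12 outside, also higher on 12.

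In windows of 1 Mb the same division appeared. Of 2842 windows with any interval, 573 (20.2%) held a very late one. Only 1 very late interval was present in 178 of these, while 32 windows with 20 or more held 1499 members (42.99%). The fullest was chr10:132000001-133000000, with 106 very late among 128 intervals, and next came chr7:57000001-58000000 with 93 among 100. They were followed by chr10:50000001-51000000 with 92 among 175, chr17:32000001-33000000 with 85 among 113 and chr12:130000001-131000000 with 75 among 110. Very late intervals were the majority in 224 windows, which together held 1862 members (53.4%). Such windows had a median of 4 intervals of any class, against 35 in windows with no very late interval, and 121 of them held very late intervals alone. A window with few intervals reaches a majority more easily, so the low count is not independent of this choice. Windows with a late majority, and windows with 20 or more intervals of another class, were not compared.

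Very late intervals were frequent beside long stretches without any interval. Each of the 23 chromosomes had at least 1 stretch of 3 Mb or more with no interval of any class, 27 in all. Whether reads can be placed there was not examined, so these stretches are not shown to lack nascent strand DNA. Of the 27, 23 had a very late interval within 5 Mb. In those flanks lay 865 very late intervals (24.8%, exact 95% interval 23.4% to 26.3%). The share in the flanks was 3.59% in the very early, 4.88% in the early, 6.12% in the mid early, 9.83% in the mid late and 16.9% in the late class, so it increased at each step of the timing order. An interval was counted as at a chromosome end where it lay within 5 Mb of the first or last interval and not in such a flank. This keeps the starts of chromosomes 13, 14, 15, 21 and 22, which open with an empty stretch, among the flanks. Very late intervals made up 7.36% of all intervals in the flanks, 2.51% of those at an end and 1.57% of the rest.

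The difference from the late class at these stretches rested largely on chromosome 7. There 231 of the 577 intervals in the flanks (40.03%) were very late, which is 26.7% of all very late intervals beside a stretch. Without chromosome 7 the share in the flanks was 19.8% for very late and 16.9% for late intervals. By chromosome, the share was 26.6 ± 22.9% for very late and 19.7 ± 19.5% for late intervals, higher for very late on 12 and lower on 9 of 21. Against all other intervals, at 7.57 ± 7.06%, it was higher on 17 of 21. The flanks on chromosome 3 had 27 very late among 78 intervals (34.6%) and those on chromosome 6 had 28 among 99 (28.3%). None was found beside the stretches of chromosomes 2, 14, 17 and 22, with 853, 349, 1293 and 654 intervals in the flanks.

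**Figure D4:**
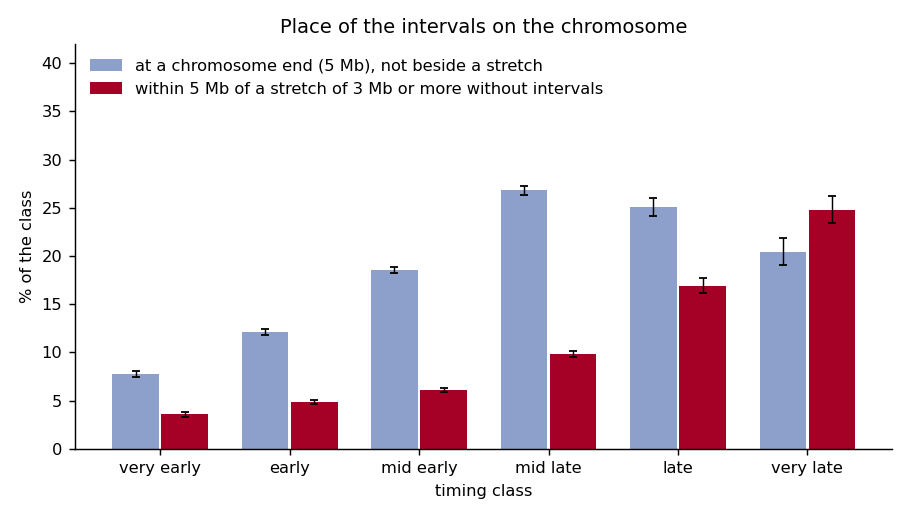
Percentage of each timing class (vertical axis) at a chromosome end (within 5 Mb of its first or last interval and not beside an empty stretch) and within 5 Mb of a stretch of at least 3 Mb without intervals, with exact 95% binomial intervals, for the 6 classes from very early to very late. The share beside empty stretches reaches 24.8% in the very late class, while the share at chromosome ends peaks at 26.8% in the mid late class.

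Chromosome ends did not follow the timing order. At the ends so defined lay 713 very late intervals (20.4%, exact 95% interval 19.1% to 21.8%), against 25.1% of late (24.2% to 25.997%) and 26.8% of mid late intervals. With every interval within 5 Mb of the first or last one counted, beside a stretch or not, the number was 775 (22.2%, 20.9% to 23.6%), against 26.4% of late and 28.02% of mid late intervals. Chromosomes 12, 10 and 2 supplied 185, 168 and 127 of the 713, together 67.3%. By chromosome the share was 13.3 ± 18.4% for very late and 19.7 ± 14.9% for late intervals, lower for very late on 13 and higher on 6 of 21.

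Very late intervals away from ends and stretches were the sparsest. Their nearest neighbour lay at a median of 10956 bp, against 2052 bp beside a stretch and 1769 bp at an end. Their median width was 354 bp, against 513 bp beside a stretch and 457 bp at an end. The 1909 intervals of this kind were 54.7% of the class, and 86.7% of the single intervals were among them. Late intervals were also narrowest in the interior, at 381 bp, but were widest at an end, at 596 bp, with 529 bp beside a stretch.

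**Figure D5:**
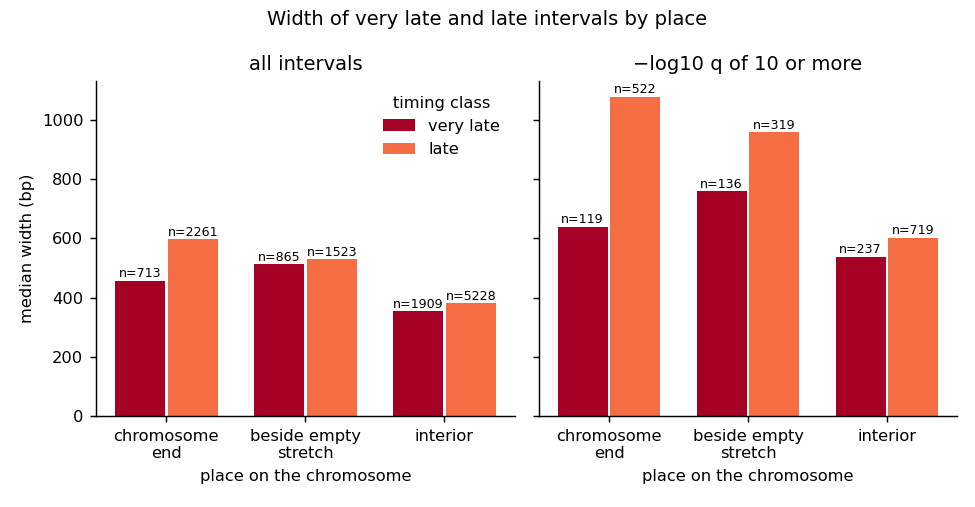
Median width in bp (vertical axis) of very late and late intervals by place on the chromosome (horizontal axis), for all intervals at left and for those with a −log10 q of 10 or more at right, with the number of intervals above each bar. The classes differ most at chromosome ends, at 638 bp for very late and 1076 bp for late intervals among the strong peaks.

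The highest fold, 82.0, belonged to a 411 bp interval at chr10:132541052-132541462. Next were 64.1 at chr5:8580967-8581630 and 59.99 at chr10:132001973-132002187. Folds of 47.9, 46.5 and 40.9 followed at chr15:95210308-95210895, chr12:131130580-131131084 and chr1:176521284-176521816. Chromosome 2 had 3 of the 10, at chr2:2724165-2725661, chr2:543629-544035 and chr2:5692783-5693470, and the last was at chr6:165163076-165163563. The 10 highest folds ran down to 32.0, and their widths ran from 215 to 1497 bp with a median of 519 bp, above the median of 412 bp for the class. All 10 consisted of 1 shared piece, and 5 of them lay in runs of 20 or more. The highest fold at chr10:132541052-132541462 belongs to an interval of which only 33.3% of bases were in peaks of both libraries. The median of that share over the 10 was 88.8%.

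The widest intervals lay elsewhere and had moderate folds. The 3 widest, at 17611, 11035 and 8734 bp, stood together in the run at chr8:47041003-47166714 beside the empty stretch of that chromosome, with folds of 8.50, 5.18 and 5.19. They were made of 9, 9 and 6 shared pieces. The other 2 of the 5 widest were 8368 bp at chr9:44873207-44881574 and 7994 bp at chr3:126715764-126723757, with folds of 6.03 and 8.59. The most isolated interval was at chrX:145466792-145467108, 949 kb from its nearest neighbour, with a fold of 3.37. The 5 most isolated intervals lay on chromosomes X, 14, 6, 1 and 13, each in 1 piece, with folds of 3.37, 4.54, 5.16, 3.43 and 4.36.

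Sharing between the libraries was a little lower in the very late class when bases were pooled, but not consistently by chromosome. Peaks of both libraries covered 1.13 of the 2.15 Mb in very late intervals (52.6%), against 54.1% for late and 57.5% for very early intervals. The median covered share of an interval by chromosome was 58.4 ± 3.03% for very late and 59.3 ± 3.27% for late intervals, a difference smaller than either SD. It was higher for very late on 11 and lower on 10 of 21 chromosomes. Intervals made of several shared pieces were 8.29% of very late (exact 95% interval 7.39% to 9.25%) and 10.7% of late intervals (10.1% to 11.4%), and the very late share was lower on 16 of 21 chromosomes.

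Retention of replicate 1 peaks was read from their numbers. Peaks of replicate 1 carry rising numbers, and a number skipped between neighbouring intervals is a peak that left none. This assumes that the numbering is consecutive. Between neighbouring very late intervals 65.9% of 4371 numbers were retained (exact 95% interval 64.5% to 67.3%), against 70.0% between late (69.1% to 70.9%) and 73.0% between very early neighbours (72.4% to 73.5%). With all gaps pooled, the very late class was the lowest of the 6. By length of the gap it was also lowest at 1 to 10 kb, at 73.0%. It was the highest under 1 kb (99.4%), at 10 to 100 kb (59.0%) and at 100 kb or more (45.7%). At each of these lengths its exact 95% interval overlapped that of the class next in rank. At 100 kb or more the intervals were 42.5% to 48.9% for very late and 40.9% to 46.6% for late neighbours. Retention at like spacing cannot be read from either set of values, since a lost peak itself lengthens the gap between those that remain.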

How the data were processed

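The authors deposited a broad peak list and 6 interval lists. BWA, MACS2 and hg19 are listed per the submitters' processing notes; their versions, the timing data, the rule for the classes and any control were not given in the sources used here. In the deposited peak list the fold (a ratio), the −log10 p and the −log10 q refer to replicate 1 peaks; the score column of the interval lists deposited by the authors is constant at 1000.

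An interval is the lowest start to the highest end of a name. It took the fold of the peak sharing most bases, at least 1 bp. Medians were compared on chromosomes with at least 20 intervals in each class, and the SD is over chromosomes. The width comparison was tested on widths shuffled within chromosomes, and overlaps, gaps and runs on a small made-up list. The width check allowed an error close in size to the width difference from late intervals. Software was matplotlib 3.10.9, scipy 1.17.1, pandas 2.3.3, numpy 2.4.6 and Python 3.11.15.

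The members and the lists were chosen with earlier results of these data known. Intervals named singly are the 10 with the highest fold, the 5 widest and the 5 farthest from a neighbour, plus the 5 longest runs, the 5 fullest windows and the 3 chromosomes with the highest and the lowest share; other runs, flanks and chromosomes named were chosen after their values were seen. Base composition, genes and sequences were planned but not used, for want of an hg19 reference.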

Additional observations from a re-analysis of the deposited data

Results flagged for a closer look

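The very late list also held 4 intervals on the mitochondrial genome, which were left out of every comparison above and drew attention as signal outside the nuclear chromosomes. They lay between positions 24 and 16502, were 1902 to 4507 bp wide and had folds of 1.95 to 3.80. Replication timing classes describe nuclear DNA, and how these 4 came into the list was not tested.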

How the results depend on the processing

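Width, fold, −log10 q, spacing and covered share were each compared with late, very early and all other intervals. Of 152 alternative values of these 15 comparisons, 147 stayed within 1 SD over chromosomes with the same direction. In every comparison with late intervals that SD was larger than the difference itself, so a difference that all but vanished still counts among the 147. Some settings also barely alter the data, and counting every line left the width ratio to late intervals unchanged. The 5 that reversed all concern the covered share. Among intervals with −log10 q of 5 or more the difference was 1.81 points against late (main −0.89), 0.252 against very early (main −2.17) and 1.27 against all others (main −1.46). Within bins of −log10 q it was 0.158 against very early and 0.905 against all others. The cause was not tested. Within that SD, the log2 width ratio to late intervals (main −0.14) was −0.02 without the first and last 5 Mb. For intervals of at least 200 bp it was −0.08, and with at least 50 intervals per chromosome −0.09. Leaving out each chromosome in turn, it ranged from −0.167 to −0.099. Away from ends and stretches, the pooled median width was 354 bp for very late and 381 bp for late intervals. What the width difference rests on was not tested. The log2 fold ratio to late intervals (main −0.04) was −0.01 without the first and last 5 Mb.

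The very late share of all intervals (2.16%) was 1.70% at a −log10 q of at least 5 and 1.90% with every line counted. Members in long runs (40.1%) were 25.3% at that −log10 q and 62.0% with runs of 10 or more. Isolated members (13.0%) were 19.2% at that −log10 q and 19.99% with a limit of 50 kb. Those beside empty stretches (24.8%) were 33.0% at that −log10 q, 37.8% with stretches of 1 Mb or more and 17.2% with flanks of 2 Mb. Those at chromosome ends (20.4%) were 3.13% with flanks of 2 Mb and 22.2% with flanks of stretches included, so this share depends on the width of the flank. The limits on runs, distance, stretches and flanks were added after the data were seen.

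Leaving out each chromosome in turn, the very late share ranged from 2.01% to 2.27%, long runs from 36.8% to 42.2%, isolated members from 11.8% to 14.1%, flanks of stretches from 19.8% to 27.6% and ends from 16.5% to 21.8%. Spacing against very early intervals gave no value with every line counted, since repeated lines overlap. Leaving out a library was not possible, since the files hold the intersection. No paired analysis was possible because there is 1 group. Depth is unknown, so intervals that fell below detection in either library cannot be counted.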
